A study of Mus musculus with 4 samples.

Results

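The genes of the basal transcription machinery were taken from a deposited table of histone H3 lysine 9 acetylation (H3K9ac) in leukaemic mouse bone marrow. Members were the rows whose gene symbol begins with Med, Taf or Ints and a digit, or with Gtf, Polr2, Polr3, Supt, Cnot or Ell. This gave 110 of the 9615 rows, with 109 distinct symbols, because Taf9 is listed under both ENSMUSG00000052293 and ENSMUSG00000078941 with identical values. The rule reads the gene symbol alone. Some genes of these complexes had no row under their symbol, so counts per complex cover only part of it. Among them were Med23, Med27, Med29, Polr2e, Polr2g, Polr2h, Polr2j, Polr3b, Polr3g, Polr3k, Ints4 and Ints9.

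H3K9ac is a histone mark of active promoters and enhancers, and chromatin immunoprecipitation followed by sequencing (ChIP-seq) counts the DNA fragments that carry it. The tg library came from mice with floxed Gfi1b (Gfi1bfl/fl), the NUP98/HOXD13 transgene and the MxCre transgene, and the WT library from mice with floxed Gfi1b and NUP98/HOXD13 but no MxCre. Both groups thus carry floxed Gfi1b and the leukaemia fusion, and "WT" refers to Cre alone. Mx-Cre is driven by an interferon-inducible promoter, and the labels state neither an inducer, nor an age, nor how many animals gave a library. The design addresses how H3K9ac differs in leukaemic marrow when Cre is present to delete Gfi1b. This gene encodes a transcriptional repressor that acts in the erythroid and megakaryocytic lineages.

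RNA polymerase II reads protein-coding genes, whereas RNA polymerase III makes transfer RNAs, 5S ribosomal RNA and other short RNAs. General transcription factors and TFIID, built of TBP and the TAFs, place polymerase II at promoters, and Mediator relays signals from DNA-bound activators to it. SPT and ELL proteins act on elongation, Integrator cleaves nascent short RNAs and paused transcripts, and CCR4-NOT shortens the poly(A) tails of messenger RNAs. Most of these genes are needed in every dividing cell, blood progenitors included.

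There was 1 H3K9ac library per genotype, so nothing that follows has a replicate check or a p-value, and a gene called higher or lower is so in these libraries. Scaling rested on totals of 163712 reads in tg and 309649 in WT, which were worked out from the values. Which reads these totals count is not given. Rows with recovered reads held 147931 reads in tg and 283584 in WT, with rows identical to a neighbour counted once. The median 1-probe gene of the whole table had 11 reads in tg and 22 in WT. Gfi1b itself had 108 reads in tg and 12 in WT over 4 probes whose positions are not given, so it does not check the deletion. The libraries also differed in markers of blood lineages. Of 20 erythroid marker genes listed, 13 had a row. Of these, 12 reached 2-fold higher values in tg and 0 reached 2-fold lower, with 477 summed reads in tg and 164 in WT. Epor, Rhag and Alas2 had 0 reads in WT and so are in the table through tg alone. Of 20 neutrophil markers listed, 5 had a row, and all 5 were 2-fold lower (9 reads in tg and 97 in WT). For 3 of these 5 the counting interval described below lay under 1. Of 16 monocyte and macrophage markers listed, 8 had a row. Of these, 4 were lower and 1 was higher (68 reads in tg and 667 in WT), and Sirpa had 0 reads in tg. B cell, T and NK cell and megakaryocyte lists had only 2, 3 and 3 genes with a row, of which 0, 1 and 0 were higher and 0, 0 and 2 lower. Genes with few reads in both libraries have no row, and a row can enter through 1 library alone. These counts therefore cover part of each list and are no test of a lineage. Uty and Ddx3y, both Y-linked, had 0 and 1 reads in tg and 28 and 22 in WT. The part of cell makeup or of sex in the values below was not tested, and in whole marrow fewer cells of a type and less mark per cell cannot be told apart.

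Most genes of the machinery differed by less than 2-fold in H3K9ac between the libraries. By the deposited values, 16 of the 110 members (14.5%) were at least 2-fold higher in tg, 11 (10%) were at least 2-fold lower and 83 lay within 2-fold. Over all 9615 rows, 16.5% were 2-fold higher and 15.8% 2-fold lower. At a 3-fold threshold 1 member was higher and 6 were lower, beside 8.49% and 7.99% of all rows, and at 1.5-fold 28 were higher and 24 lower, beside 28.7% and 25.4%. The 66 members at or above the median level of all rows included 9 that were 2-fold higher and 3 that were 2-fold lower, beside 10.2% and 10.8% of all rows at that level. The median log2 difference, tg minus WT, was 0.13 for the members and 0.05 for all rows. Its standard deviation over genes was 0.88 for the members and 1.27 for all rows. Reads summed over the members came to 1852 in tg and 3522 in WT, which is a ratio of 0.995 after scaling by the totals (95% counting interval 0.940 to 1.05). Over all rows with recovered reads the ratio was 0.987. Scaling by totals cannot show a gain or loss of mark common to all genes. Neither the shares nor the spread were tested against the other rows.

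A member's fold was computed from reads summed over its probes and scaled by the library totals, with an exact conditional binomial (Clopper-Pearson) 95% interval that covers counting error only. Of the 109 members with recovered reads, 11 had an interval wholly above 1 and 11 wholly below 1 (10.1% each). Over all rows with recovered reads 12.8% lay above 1 and 12.7% below. Depth limited these calls: the 96 members with 1 probe had a median of 13.5 reads in tg and 24.5 in WT. Reads are per probe of unknown length, so the levels of different genes are not ranked here.

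**Figure D1:**
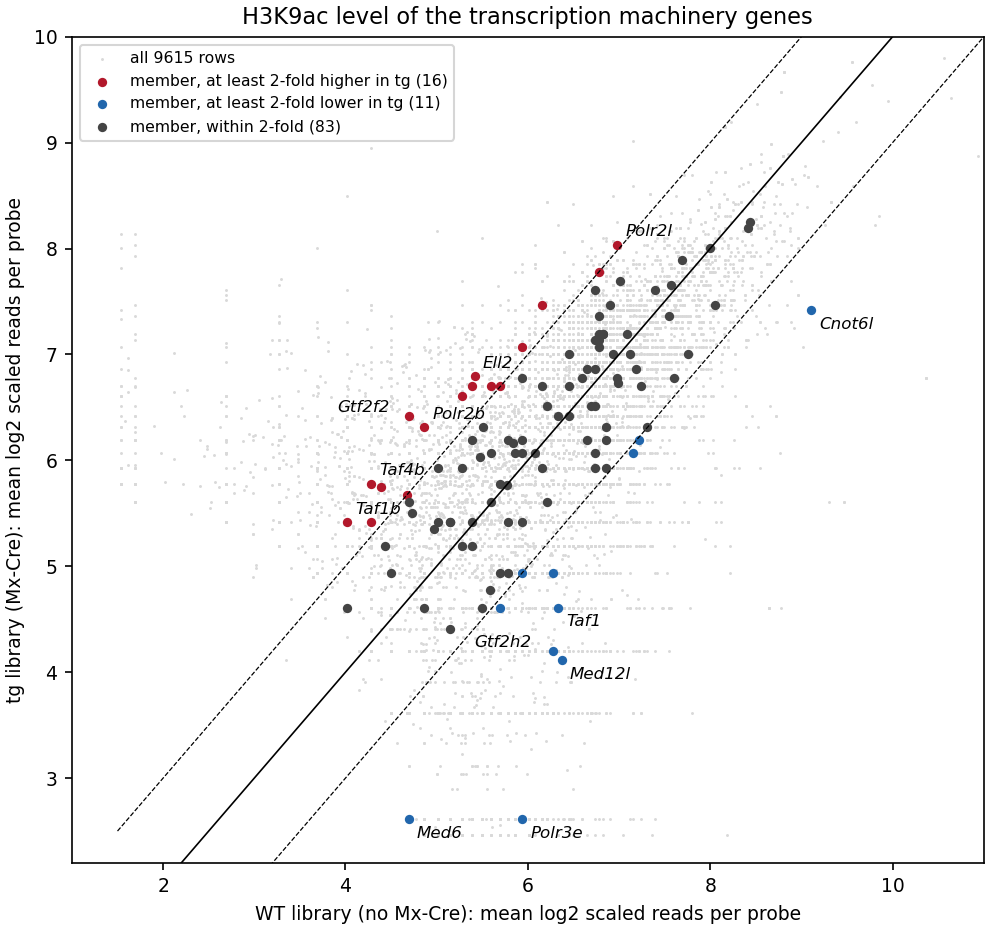
H3K9ac level (mean over a gene's probes of log2 scaled reads) in the tg library on the vertical axis and the WT library on the horizontal axis, with 1 point per row. Grey points are all 9615 rows, the solid line marks equality and the dashed lines a 2-fold difference. The 16 red members lie on or above the upper dashed line, the 11 blue members on or below the lower one, and 83 dark members between.

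Of 27 Mediator genes, 3 were 2-fold higher in tg and 3 lower (11.1% each), beside 16.5% and 15.8% of all rows. Their median log2 difference was 0.21. In the head module, which contacts polymerase II, Med28 had 17 reads in tg and 15 in WT, a 2.14-fold higher scaled level (1.01 to 4.61). Med6 and Med11, also of the head, were 2-fold lower by the deposited values, but on few reads. Med6 had 1 read in tg and 8 in WT (4.23-fold lower, 0.567 to 188). Med11 had 5 and 19 (2.01-fold lower, 0.726 to 6.88), so that both intervals include 1. Each 1-probe row has at least 9 reads over both libraries, so the row of Med6 is in the table through WT. The other 7 of the 10 head genes lay within 2-fold, among them Med18 with 19 reads in tg and 31 in WT.

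In the middle module Med7 stood highest, with 29 reads in tg and 22 in WT (2.49-fold, 1.38 to 4.55). It holds the middle module together with Med21, which had 23 reads in tg and 34 in WT (1.28-fold, 0.720 to 2.24). None of the other middle genes was beyond 2-fold, and Med1, the subunit that binds nuclear receptors and also GATA1, had 12 reads in tg and 18 in WT over 2 probes (1.26-fold, 0.554 to 2.77). Summed over the middle module the ratio was 1.24 (1.01 to 1.53), and without Med7 it was 1.11 (0.886 to 1.39). With each of the 8 genes left out in turn, 5 of the 8 intervals included 1. In the tail, Med25, a target of activators, was 2.19-fold higher on 22 reads in tg and 19 in WT (1.13 to 4.28). Med14, the scaffold that joins the modules, is X-linked and had 5 reads in tg and 17 in WT (0.556, 0.160 to 1.57).

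The kinase module contained the Mediator gene with the lowest ratio. Med12l, a paralogue of Med12, had 12 reads in tg and 120 in WT over 4 probes, 5.29-fold lower (2.92 to 10.5). Its probes held 2, 2, 4 and 4 reads in tg and 13, 16, 45 and 46 in WT, so every probe of tg was below every probe of WT. However, the gene spans chr3:59006978-59318410 (GRCm38), and the receptor genes Gpr171 and P2ry14 lie inside it. Gpr171 had 3 probes with 2, 4 and 4 reads in tg and 13, 45 and 46 in WT, and P2ry14 had 1 probe with 2 reads in tg and 16 in WT. Together these are the same counts as those of the 4 Med12l probes, which therefore give no reads apart from those also credited to the nested genes. The remaining kinase-module genes were near equality: Med12 (7 reads in tg and 11 in WT) at 1.20 (0.396 to 3.40), Med13 at 1.24 (0.860 to 1.79) and Med13l at 0.856 (0.596 to 1.22). Summed over the module the ratio was 0.712 (0.572 to 0.882), and without Med12l it was 1.03 (0.808 to 1.31).

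TFIID and SAGA genes had 2 of 19 rows 2-fold higher in tg and 2 lower (10.5% each), beside 16.5% and 15.8% of all rows. Their summed reads gave a ratio of 1.00 (0.849 to 1.18). Taf1, the X-linked gene of the largest TFIID subunit, had 4 reads in tg and 25 in WT, 3.30-fold lower (1.14 to 13.1). Taf5, whose WD40 protein belongs to the TFIID core, had 12 and 46 reads (2.03-fold lower, 1.06 to 4.20). On the higher side stood Taf4b, a tissue-restricted paralogue of Taf4, with 9 reads in tg and 6 in WT (2.84-fold, 0.902 to 9.69), and Supt3h, a SAGA subunit, with a log2 difference of 1.00 over 6 probes. Supt3h overlaps Runx2, which has 8 probes, and its reads could not be recovered. The paralogues Taf6l and Taf5l had intervals that include 1. Taf6l had 39 reads in tg and 64 in WT (1.15, 0.754 to 1.74) and Taf5l had 22 and 34 (1.22, 0.682 to 2.15).

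The 3 X-linked members, Taf1, Med12 and Med14, had 16 reads in tg and 53 in WT between them (0.571, 0.305 to 1.01). Over all 215 X-linked rows the median log2 difference was -0.24, and 17.7% were 2-fold higher and 24.2% 2-fold lower. The Y-linked genes given above also differed between the libraries, and whether sex has a part in the X-linked values was not tested.

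Taf1b, Taf1c and Taf1d belong to the selectivity factor of RNA polymerase I, and TAF15 is an RNA-binding protein of the FET family. Taf15 was 2.47-fold higher on 17 reads in tg and 13 in WT (1.13 to 5.54). Taf1b had 7 and 5 reads (2.65-fold, 0.723 to 10.6), Taf1c had 4 and 16 (0.473, 0.115 to 1.47), and Taf1d had 15 and 32 (0.887, 0.446 to 1.69). No common direction was seen among the 3 polymerase I genes, whose intervals all include 1.

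Of 12 genes for general factors of polymerase II, 2 were 2-fold higher in tg and 1 was lower, beside 16.5% and 15.8% of all rows. TFIIF joins polymerase at the promoter and has subunits encoded by Gtf2f1 and Gtf2f2. Gtf2f2 had the largest positive log2 difference of all members, 1.73, on 14 reads in tg and 8 in WT (3.31-fold, 1.30 to 9.11), while Gtf2f1 had 24 and 42 reads (1.08, 0.626 to 1.83). In TFIIE, Gtf2e2 was 2.003-fold higher on 36 reads in tg and 34 in WT (1.22 to 3.30) and Gtf2e1 at 0.924 (0.521 to 1.59). In both complexes the intervals of the partners overlap, and the difference between partners was not tested. Of the 5 genes of TFIIH, the factor that opens promoter DNA, Gtf2h2 had 3 reads in tg and 24 in WT, 4.23-fold lower (1.28 to 21.9), and the other 4 lay within 2-fold. Gtf2b, which encodes TFIIB, and Gtf2a1, which encodes a TFIIA subunit, were within 2-fold, with intervals below 1. Gtf2b had 18 reads in tg and 60 in WT (0.567, 0.315 to 0.974), and Gtf2a1 had 46 and 124 (0.702, 0.489 to 0.992). Gtf2a2, for the other TFIIA subunit in the table, had 19 and 45 (0.799, 0.441 to 1.39). Over all 12 genes the summed ratio was 0.952 (0.812 to 1.11).

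The promoters of the members with the largest differences on both sides are printed here, because H3K9ac gathers at promoters, although the table does not say where a gene's probe lies. They are the 3 highest and 3 lowest members whose counting interval excludes 1, leaving out Med12l, whose counts are those of nested genes, and genes with several RefSeq start sites or on a chromosome not printed. Each is the 250 bases before the RefSeq start, 5′ to 3′ on the strand of the gene, from GRCm38.p6. Capitals mark matches on either strand to motifs searched for 7 factor families and to a B box. GATA factors were searched as AGATAA and also as the variant TGATAA. ETS factors were searched as CCGGAAG and nuclear respiratory factor NRF1 as GCGCATG. The letters for YY1 were AAGATGG, those for nuclear factor NF-Y were CCAAT, those for SP and KLF factors were GGGCGG, and those for the TATA box were TATAAA. The 3 higher in tg were Gtf2f2 (chr14:76010866-76011115, minus strand), Polr2b (chr5:77310234-77310483, plus) and Ell2 (chr13:75707234-75707483, plus).
Gtf2f2: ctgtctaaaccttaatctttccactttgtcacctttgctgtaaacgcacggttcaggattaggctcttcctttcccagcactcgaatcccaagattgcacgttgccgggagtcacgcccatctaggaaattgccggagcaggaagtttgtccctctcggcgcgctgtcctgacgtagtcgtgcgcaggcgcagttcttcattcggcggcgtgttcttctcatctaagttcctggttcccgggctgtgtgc
Polr2b: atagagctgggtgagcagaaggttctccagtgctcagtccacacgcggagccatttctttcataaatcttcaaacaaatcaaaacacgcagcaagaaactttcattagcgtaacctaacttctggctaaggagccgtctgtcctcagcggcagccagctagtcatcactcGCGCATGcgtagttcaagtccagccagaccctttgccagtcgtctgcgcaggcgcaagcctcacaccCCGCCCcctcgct
Ell2: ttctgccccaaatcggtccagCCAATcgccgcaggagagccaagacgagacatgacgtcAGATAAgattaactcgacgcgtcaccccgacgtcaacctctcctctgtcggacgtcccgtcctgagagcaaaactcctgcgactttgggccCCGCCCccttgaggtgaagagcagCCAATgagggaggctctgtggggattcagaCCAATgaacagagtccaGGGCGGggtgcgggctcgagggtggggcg

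The 3 lower in tg were Polr3e (chr7:120917528-120917777, plus strand), Gtf2h2 (chr13:100492395-100492644, minus) and Taf1 (chrX:101532485-101532734, plus).
Polr3e: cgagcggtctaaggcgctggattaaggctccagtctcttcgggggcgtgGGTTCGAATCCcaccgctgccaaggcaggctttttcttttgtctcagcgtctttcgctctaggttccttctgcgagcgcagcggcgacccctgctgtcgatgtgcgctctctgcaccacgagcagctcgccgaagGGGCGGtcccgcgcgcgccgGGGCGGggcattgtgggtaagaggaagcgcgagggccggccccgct
Gtf2h2: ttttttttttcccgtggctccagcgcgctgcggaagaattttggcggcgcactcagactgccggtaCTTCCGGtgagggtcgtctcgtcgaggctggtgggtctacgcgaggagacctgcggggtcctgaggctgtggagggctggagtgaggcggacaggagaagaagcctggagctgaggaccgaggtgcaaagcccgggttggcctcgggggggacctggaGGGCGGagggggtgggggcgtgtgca
Taf1: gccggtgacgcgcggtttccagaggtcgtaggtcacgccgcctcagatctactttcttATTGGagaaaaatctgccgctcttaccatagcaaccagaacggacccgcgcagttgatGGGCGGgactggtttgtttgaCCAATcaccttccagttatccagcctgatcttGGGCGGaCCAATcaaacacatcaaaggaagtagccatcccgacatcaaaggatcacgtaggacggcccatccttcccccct

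The window of Gtf2f2 held none of the listed motifs. The Ell2 window held 3 CCAAT, 2 SP/KLF matches and the only GATA match among these 6 windows, and the Taf1 window held 3 CCAAT and 2 SP/KLF matches. The Polr3e window begins inside a transfer RNA gene: RefSeq places n-TLaag4, 82 bases long, at chr7:120917517-120917598, ending 179 bases before the window's last base. The first capitals in that window, GGTTCGAATCC, are its B box, the internal promoter element that TFIIIC binds so that RNA polymerase III can transcribe the gene. A polymerase III subunit gene thus lies directly next to a polymerase III template. Of all 32851 RefSeq promoter windows, 8 overlap a tRNA gene (0.0244%) and 34 hold the B box letters GGTTCGANNCC (0.103%). The B box was searched after the letters of this window had been seen.

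Promoters of the members as a whole were rich in CpG. For 92 member genes RefSeq gave 110 windows, with a median observed over expected CpG of 0.847, against 0.753 in the 8551 windows of all genes with a row and 0.373 in all 32851. ETS letters occurred in 24.5% of the members' windows, in 15.2% of those of genes with a row and in 6.91% of all windows. For NRF1 the shares were 13.6%, 6.22% and 3.24%, for YY1 9.09%, 4.47% and 4.49%, for SP/KLF 61.8%, 58.8% and 32.7%, for NF-Y 29.1%, 35.2% and 33.8%, and for TATAAA 10.9%, 5.77% and 12.4%. GATA letters were found in 7.27%, 9.18% and 16.6%. These are descriptions of letters in the window and show no binding.

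Among 9 subunit genes of RNA polymerase II, 3 were 2-fold higher in tg and 0 lower, beside 16.5% and 15.8% of all rows. Polr2b, the gene of the second largest subunit, had 13 reads in tg and 9 in WT (2.73-fold, 1.08 to 7.24). Polr2l and Polr2f encode small subunits that polymerases I, II and III share. Polr2l had 43 reads in tg and 39 in WT (2.09-fold, 1.32 to 3.30), but its neighbour Tspan4 has the same values, and the probe cannot be assigned to either gene. Polr2f had 7 and 6 reads (2.21-fold, 0.635 to 7.95). Polr2a, the gene of the largest catalytic subunit, had 17 reads in tg and 47 in WT (0.684, 0.368 to 1.21), and these values are also those of its neighbour Amac1, so that the same holds for its probe. Polr2m, whose protein binds polymerase II and makes it depend on Mediator, was within 2-fold with an interval below 1 (21 and 67 reads, 0.593, 0.345 to 0.980). Over the group the summed ratio was 1.14 (0.924 to 1.41), and without Polr2l 0.960 (0.748 to 1.23).

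RNA polymerase III held the member with the lowest ratio of all. Polr3e, which encodes a polymerase III-specific subunit at chr7:120917744-120947432 (ENSMUSG00000030880), had 1 read in tg and 19 in WT, with log2 levels of 2.61 and 5.94. It was 10.05-fold lower, with a wide interval of 1.60 to 417 that comes with a single read. Each 1-probe row has at least 9 reads over both libraries, so the row of Polr3e is in the table through WT. The other 6 subunit genes lay within 2-fold. Polr3a, the gene of the largest subunit, had 12 reads in tg and 13 in WT (1.75, 0.728 to 4.15), and Polr3d had 10 and 22 (0.860, 0.363 to 1.89). Without Polr3e the summed ratio of the subunits was 1.21 (0.915 to 1.60), and with it 1.08 (0.817 to 1.41).

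Of the 6 genes for factors that recruit polymerase III, 0 were 2-fold higher in tg and 1 was lower, beside 16.5% and 15.8% of all rows. Their median log2 difference was -0.70, with 5 of the 6 negative, beside 4630 negative of all 9615 rows. Their summed reads were 55 in tg and 151 in WT (0.689, 0.496 to 0.944). Gtf3a, which encodes TFIIIA, the factor of the 5S ribosomal RNA genes, was the 1 gene beyond 2-fold, with 5 reads in tg and 24 in WT (2.54-fold lower, 0.949 to 8.52). The TFIIIC genes were Gtf3c1 (7 and 19 reads), Gtf3c3 (4 and 14), Gtf3c4 (12 and 31), Gtf3c6 (10 and 36) and Gtf3c2 (17 and 27), with log2 differences of -0.52, -0.89, -0.45, -0.93 and 0.25. The values of Gtf3c4 are also those of its neighbour Ddx31. None of the 6 single intervals excluded 1. The interval of the summed ratio rests on single genes: it includes 1 without Gtf3a (0.745, 0.526 to 1.04) and without Gtf3c6 (0.740, 0.512 to 1.05).

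Of 6 SPT and ELL genes of elongation, 2 reached 2-fold higher and 0 reached 2-fold lower values in tg, beside 16.5% and 15.8% of all rows, and the median log2 difference was 0.80. Ell2, a subunit of the super elongation complex that also favours processing of secreted immunoglobulin messages in plasma cells, had the largest fold by summed reads among all members. It had 61 reads in tg and 32 in WT (3.61-fold, 2.31 to 5.72). Its 2 probes held 6 and 55 reads in tg and 7 and 25 in WT, and the table does not show which count of tg belongs to which of WT. Supt5h, the gene of the DSIF subunit SPT5, had 16 and 12 reads (2.52-fold, 1.12 to 5.84), and Supt4h1, its DSIF partner, had 10 and 10 (1.89-fold, 0.707 to 5.06). Supt6h had 34 reads in tg and 40 in WT (1.61, 0.987 to 2.60), Ell had 15 and 23 (1.23, 0.599 to 2.47), and Supt16h, which encodes a FACT subunit, had 27 and 58 (0.880, 0.536 to 1.41). Summed over the group the ratio was 1.76 (1.41 to 2.19), and without Ell2 it was 1.35 (1.04 to 1.75). The values of Supt6h are also those of its neighbour Sdf2. Without Supt6h alone the ratio was 1.81 (1.41 to 2.32), and the ratio without both Ell2 and Supt6h was not computed. These intervals cover counting error only, and the group was not tested against other sets of rows.

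Integrator genes had 2 of 9 members 2-fold higher and 0 lower, beside 16.5% and 15.8% of all rows. None had an interval that excluded 1. Ints10 had 17 reads in tg and 16 in WT (2.01-fold, 0.955 to 4.25). Ints8 had a log2 difference of 1.36 by the deposited mean over its 2 probes, but its summed reads of 18 in tg and 23 in WT gave 1.48 (0.753 to 2.87), because 1 of its WT probes held 2 reads and the other 21. The best covered genes were close to equality, with Ints12 at 50 reads in tg and 107 in WT (0.884, 0.619 to 1.25) and Ints6 at 42 and 79 (1.01, 0.675 to 1.48).

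CCR4-NOT held a well covered gene that was lower in tg and its paralogue on the opposite side. Cnot6l, which encodes one of the alternative CCR4-type deadenylases, had 28 reads in tg and 170 in WT, with log2 levels of 7.42 and 9.10, and was 3.21-fold lower (2.14 to 4.97). Cnot6, which encodes the other, had 32 and 33 reads and was 1.83-fold higher (1.09 to 3.08). The intervals of these paralogues do not overlap. Their CAF1-type counterparts were Cnot8, with 13 reads in tg and 49 in WT (1.99-fold lower, 1.06 to 4.004), and Cnot7, with 29 and 68 (0.807, 0.503 to 1.26). For Cnot7 the direction depends on the value used, since the deposited mean over its 2 probes gave a log2 difference of 0.32, higher in tg. Its probes held 6 and 23 reads in tg and 5 and 63 in WT. The overlapping gene Vps37a has 1 probe with 23 and 63 reads, so most reads of Cnot7 may also be credited to Vps37a. Cnot1, the scaffold, had 21 and 38 reads (1.05, 0.583 to 1.83), Cnot2 had 32 and 52 (1.16, 0.725 to 1.84) and Cnot3 had 29 and 82 (0.669, 0.422 to 1.03). The summed ratio of the complex, 0.738 (0.624 to 0.869), became 0.943 (0.782 to 1.13) without Cnot6l.

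The 2 members of the TFII-I family, which are DNA-binding factors and no part of the basal machinery, were Gtf2ird2 and Gtf2i. Gtf2ird2 had 11 reads in tg and 44 in WT (2.11-fold lower, 1.07 to 4.54), and Gtf2i had 33 and 59 (1.06, 0.669 to 1.65).

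**Figure D2:**
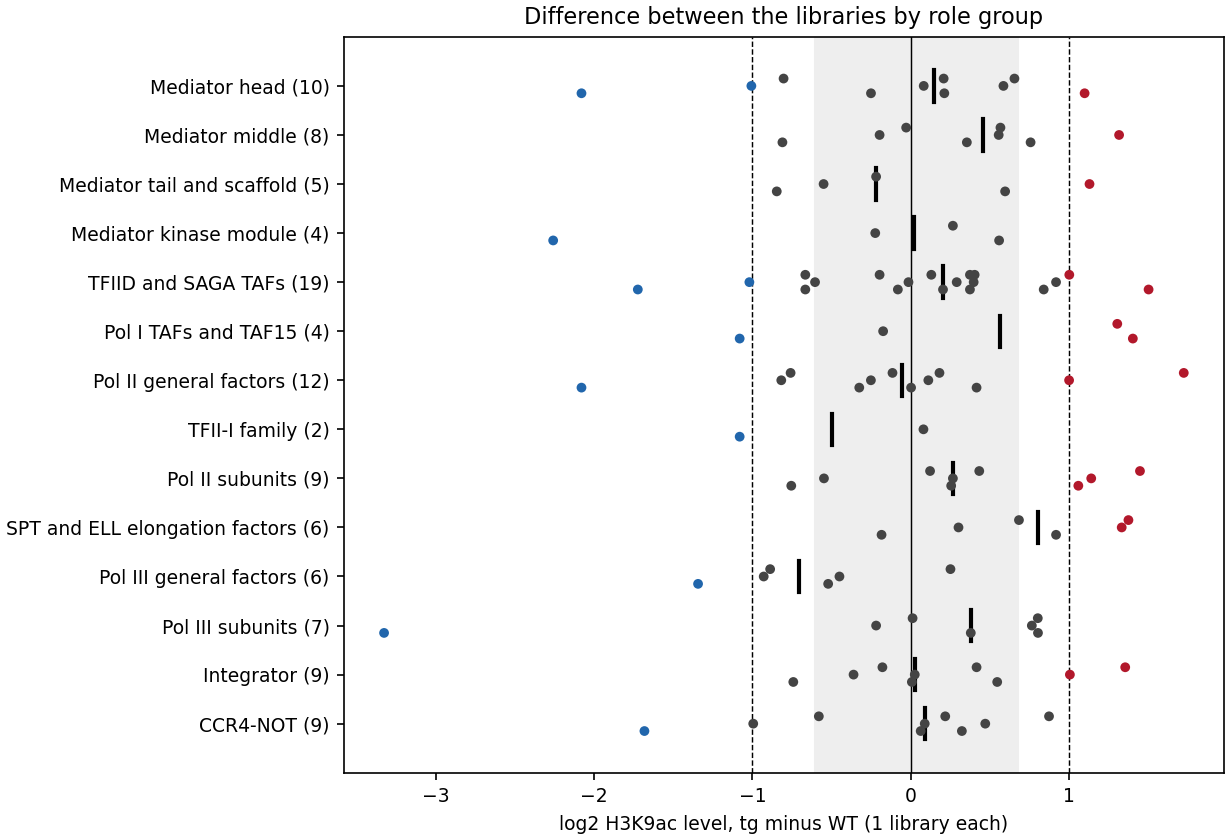
Difference of the deposited log2 H3K9ac levels, tg minus WT, for each member (points) by role group, with the number of rows in brackets and a bar at the group median. The grey band spans the quartiles of all rows and dashed lines mark 2-fold. The polymerase III general factors have a median of -0.70 and the SPT and ELL factors one of 0.80. The other medians lie between -0.50 (TFII-I family) and 0.57 (polymerase I TAFs and TAF15).

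**Figure D3:**
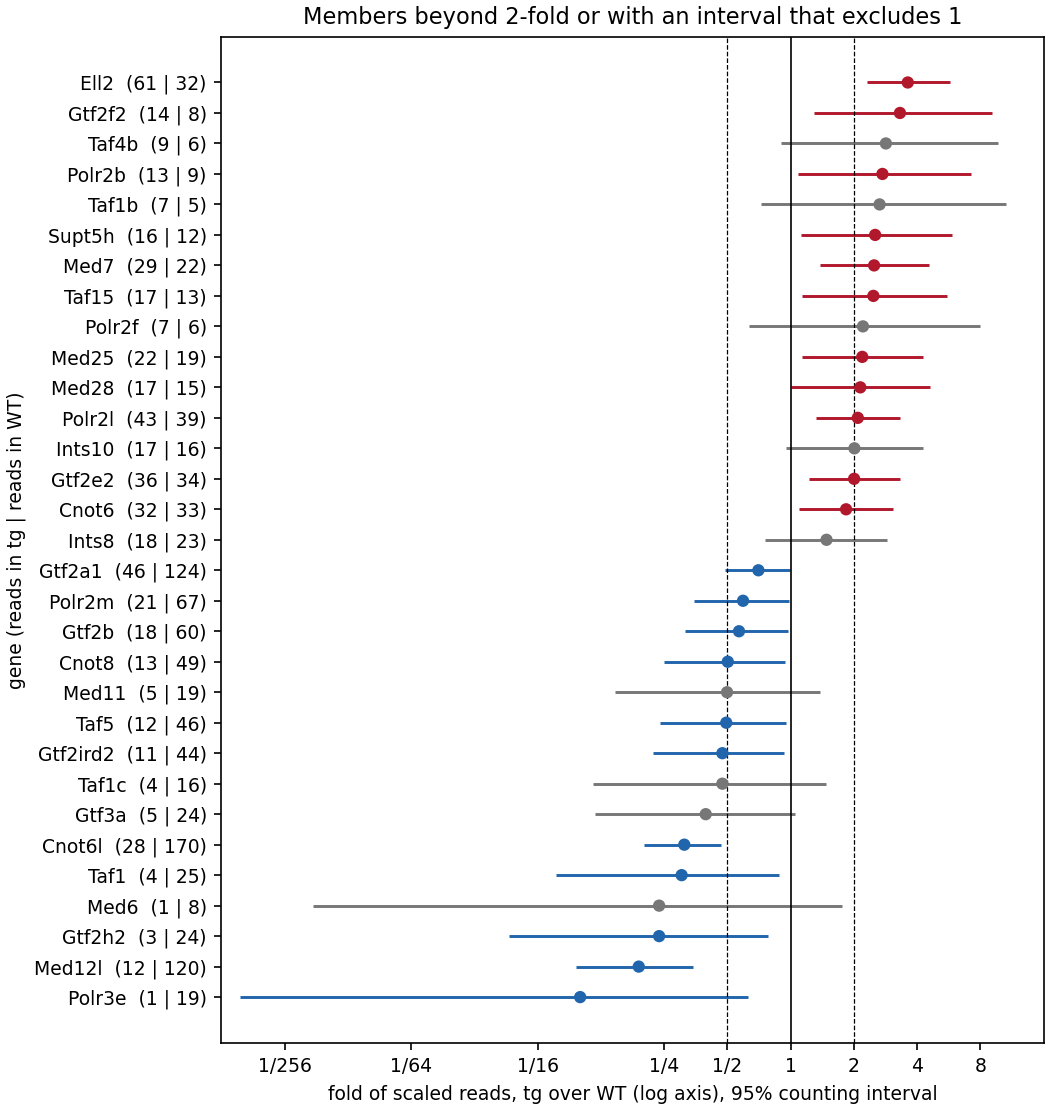
Fold of scaled reads, tg over WT, on a log axis with exact 95% counting intervals, for the 31 members that were beyond 2-fold by the deposited values or had an interval that excludes 1. Supt3h, without recovered reads, is left out. Reads are given as tg then WT, and grey intervals include 1. The intervals are wide where reads are few, as for Med6 (1 and 8 reads) and Polr3e (1 and 19), and narrower for Gtf2a1 (46 and 124).

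**Figure D4:**
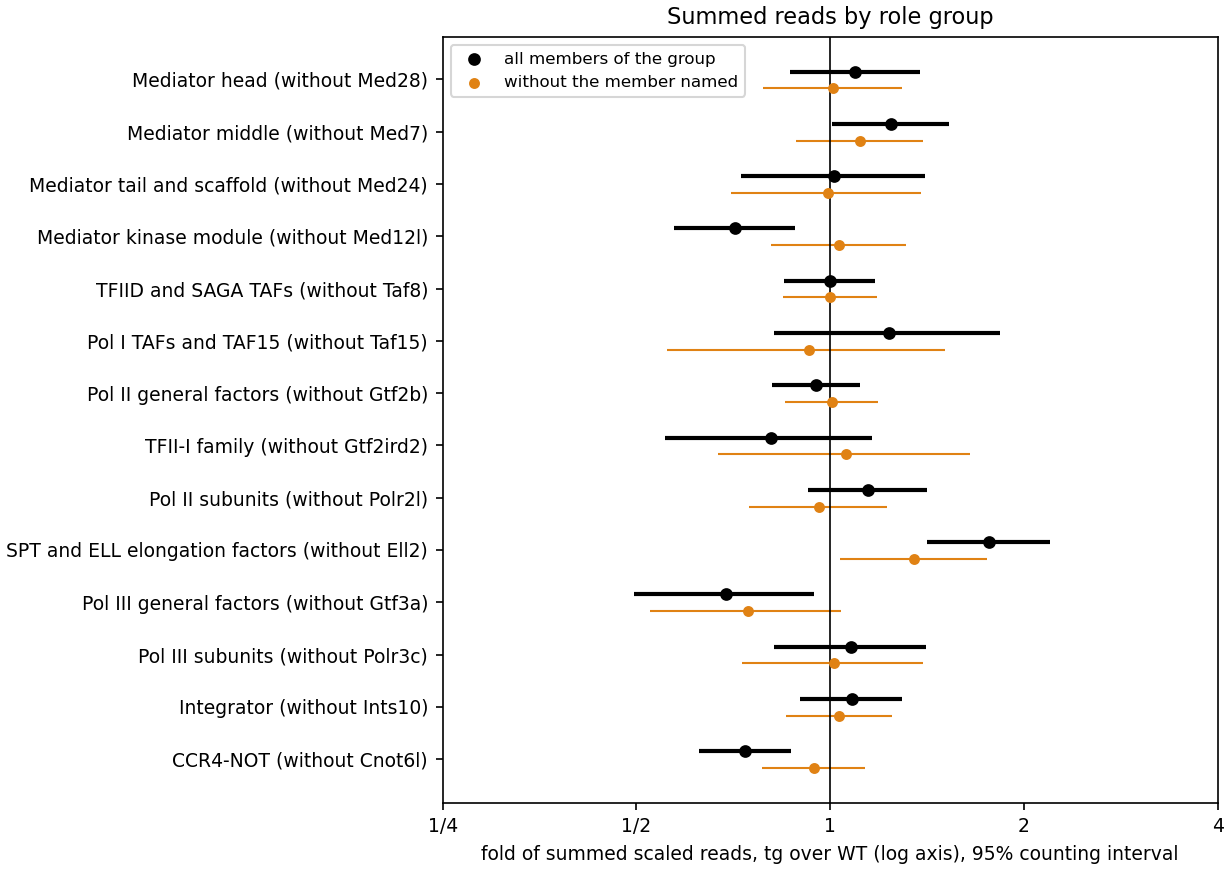
Fold of reads summed over each role group, tg over WT, on a log axis with exact 95% counting intervals (black), and the same without the 1 member whose removal brings the ratio nearest to 1 (orange). CCR4-NOT and the Mediator kinase module lie below 1 with all members and include 1 without Cnot6l or Med12l, and the Mediator middle module lies above 1 and includes 1 without Med7. The polymerase III general factors lie below 1 and include 1 without Gtf3a, and the SPT and ELL factors lie above 1 with and without Ell2.

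Some members share their probe with a neighbour. For 21 of the 110 (19.1%) a gene within 100000 bp had identical values, against 16.2% of all rows. Pairs of this kind were Gtf3c4 with Ddx31, Med20 with Bysl, Taf6l with Tmem179b, Taf5l with Urb2, Gtf2e1 with Rabl3, Polr2a with Amac1, Polr3d with Mir320, Ints12 with Gstcd and Supt6h with Sdf2. Cnot1, Taf1d, Med8, Med9, Med16, Med19, Gtf2h1, Gtf2h3, Supt7l and both Taf9 rows also have such a neighbour. Of the 27 members beyond 2-fold, Polr2l was the 1 with such a neighbour. Some members with several probes have a nearby 1-probe gene whose counts are among their own. These were Cnot7 (Vps37a), Polr3c (Rnf115), Polr3f (6330439K17Rik), Med31 (4930563E22Rik), Gtf2h4 (Vars2) and Med12l (P2ry14). Part of their reads may thus also be credited to that gene. The second Taf9 row spans chr13:100651343-100666413, and which gene it stands for was not settled.

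Genes that work with these complexes but fall outside the symbol rule were compared as 5 lists of 95 names, older symbols included, of which 76 had a row. Tob2 has a second row with the same values, which was counted once. Of the 76, 5 were 2-fold higher in tg, 7 were 2-fold lower and the median log2 difference was 0.09. Cyclin C and MAT1 are the partners of the Mediator and TFIIH kinases. Their genes were both higher, Ccnc on 17 reads in tg and 14 in WT (2.30-fold, 1.07 to 5.03) and Mnat1 on 14 and 11 (2.41-fold, 1.02 to 5.86). Cdk19, the gene of an alternative Mediator kinase, had a log2 difference of -1.11 over 5 probes. These were the members beyond 2-fold of 10 genes for partner kinases, cyclins and TBP.

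In the list for pause release and the super elongation complex, 1 of 28 genes was higher and 2 were lower. For each list here the shares over all rows were 16.5% higher and 15.8% lower. Eaf1, an ELL-associated factor gene, had 12 reads in tg and 9 in WT (2.52-fold, 0.975 to 6.78). Its paralogue Eaf2 had a log2 difference of -1.61 over 16 probes, and Aff4, the scaffold of the super elongation complex, one of -1.22, although its summed reads of 30 in tg and 81 in WT gave 0.701 (0.445 to 1.08). Of 17 genes for polymerases I and III and their factors, 0 were higher and 2 lower: Polr1d, a subunit gene shared by both polymerases, had 8 and 47 reads (3.11-fold lower, 1.45 to 7.61), and Snapc1 had 5 and 19 (2.01-fold lower, 0.726 to 6.88). Among 11 SAGA and ATAC partners, the acetyltransferase gene Kat2b was 2.95-fold higher on 39 reads in tg and 25 in WT (1.74 to 5.09). Lower were the SAGA deubiquitinase gene Usp22, with 9 and 37 reads (2.17-fold, 1.03 to 5.12), and its cofactor gene Atxn7l3, with 8 and 36 (2.38-fold, 1.09 to 5.93). Of 10 Integrator and deadenylase partners 1 was higher, Tob1, with 8 reads in tg and 6 in WT (2.52-fold, 0.767 to 8.82), and 0 were lower.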

How the data were processed

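H3K9ac ChIP-seq was available as 1 table with a row per Ensembl gene. The authors' deposited values are log2 scaled reads, given per the file headers as the mean and standard deviation over a gene's probes, with the number of probes. Columns were matched to the tg and WT H3K9ac libraries by library code. The 2 IgG libraries were not analysed here. The submitters' processing notes name CASAVA 1.8.2, BWA, SAMtools and FastQC, with mm10 and GRCm38 as builds. Not given in the sources used here were the placement of probes, the handling of duplicates and the table's software.

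The scale was worked out from the values. In both libraries 100% of the 1-probe linear values were whole multiples of 1 step (6.11 in tg, 3.23 in WT) within 0.01 of a read, with 0 reads entered as 0.9. Reads per probe were recovered for genes with 1 to 4 probes where exactly 1 set of whole numbers matched (9492 of 9615 rows). Recovery and intervals were tested on simulated data. Each 1-probe row has at least 9 reads over both libraries, so genes below that level are not in the table, and low rows entered through the library where they are higher. A count of 0 allows 3 reads, or 18.3 scaled reads in tg and 9.69 in WT. Intervals and floors cover counting error only, because without molecular identifiers 1 molecule can give several reads.

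Differences are tg minus WT of the deposited log2 values, and 2-fold is a rule of size. Python 3.11.15, numpy 2.4.6, pandas 2.3.3, scipy 1.17.1 and matplotlib 3.10.9 were used. Named were all members beyond 2-fold, those whose interval excludes 1 and up to 4 genes per partner list. Some, but not all, of the best covered members of the role groups were named as well. Others named, among them paralogues and complex partners, were chosen after their values were seen. The members, lists and role groups were chosen with earlier results of these data known. Alternatives were another value per gene, centring, filters, thresholds and a pseudocount. Promoter sequences are from RefSeq, matched by symbol or by a listed synonym.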

Additional observations from a re-analysis of the deposited data

How the results depend on the processing

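The counts of 2-fold higher (16) and lower (11) members and their median log2 difference (0.13) were recomputed. The median moved by less than 0.1 under all 7 alternatives run for it. The 1.5-fold threshold gave 28 higher and 24 lower members (28.7% and 25.4% of all rows), and the 3-fold threshold 1 higher and 6 lower (8.49% and 7.99%). Of the 66 members at or above the median level of all rows, 9 were higher and 3 lower, against 10.2% and 10.8% of all rows at that level. With 1 read added to both libraries 7 members were lower and 13 higher. The shares of all rows with that addition are not given here, so the drop cannot be read as particular to the members. All other counts stayed within 1.5 times, at 13 to 15 higher and 10 to 12 lower. They came from summed reads, centring, 1-probe members, members without an identical neighbour, and leaving out the TFII-I family and Taf15. By summed reads, 14.8% of all rows with recovered reads were 2-fold higher and 15.4% 2-fold lower. Shares of all rows under the other settings of this kind are not given here. Gtf2e2, Supt3h and Ints10 lie at the upper threshold and Med11 and Taf5 at the lower one, with Cnot8 just outside (log2 difference -0.99). Of 13 members with several probes and recovered reads, 1, Cnot7, had summed reads and mean log2 values of opposite sign. Summed ratios were also recomputed without each gene of a group in turn, a choice made after seeing the data: the kinase module turned to 1.03 without Med12l, and intervals came to include 1 for 1 of 9 genes left out of CCR4-NOT, 5 of 8 of the Mediator middle module, 2 of 6 of the polymerase III factors and 0 of 6 of the SPT and ELL factors. With 1 library per group, leaving out a replicate was not possible. No paired analysis was possible because each group has 1 library.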
